A study of Mus musculus with 12 samples.

Results

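The genes of the route by which gut epithelium turns glutamine into citrulline were read in epithelial cells sorted from the small intestine of mice 24 h after stroke or sham surgery. The 9 genes were chosen by the step their enzyme catalyses: Glud1, Aldh18a1, Oat, Prodh, Cps1, Otc, Ass1, Asl and Arg2, of 15855 genes in the count table. All 9 were listed in the table, and 8 passed the filter on low counts, Ass1 being the exception. The animals were C57BL6/J mice, male and 8 to 12 weeks old per the study's methods, and both groups were anaesthetised with ketamine and xylazine for surgery. In the pMCAO group (5 samples) the middle cerebral artery was permanently occluded with an intraluminal filament, and in the sham group (7 samples) the same surgery was done without occluding the artery. Cells were sorted as EpCAM+7AAD-, that is, epithelial and alive, from the whole small intestine, and every sample carried its own biological replicate number. The comparison asked which genes of the gut epithelium differ after stroke. The samples hold all epithelial types of the gut wall in 1 pool, so fewer cells of a type and less RNA per cell cannot be told apart.

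The small intestine is the main source of circulating citrulline. Its enterocytes take up glutamine and convert it to glutamate, and a bifunctional synthase encoded by Aldh18a1 reduces glutamate to pyrroline-5-carboxylate (P5C), which proline dehydrogenase (Prodh) can also supply from proline. Ornithine aminotransferase (Oat) turns P5C into ornithine. In the mitochondrion, carbamoyl phosphate synthetase (Cps1) fixes ammonia and ornithine transcarbamylase (Otc) joins its product to ornithine to form citrulline. Argininosuccinate synthetase (Ass1) and argininosuccinate lyase (Asl) convert citrulline into arginine, a step that adult enterocytes largely leave to the kidney. The mitochondrial arginase Arg2 splits arginine into ornithine and urea, and glutamate dehydrogenase (Glud1) interconverts glutamate and 2-oxoglutarate with release or uptake of ammonia.

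Promoter sequence was at hand for 6 of the 9 genes, from RefSeq on GRCm38.p6, as the 300 bases from 250 before to 50 after the start. Those of Glud1, which showed the lowest p of the group, of Oat, whose difference went the other way, and of Otc, the enzyme that makes citrulline, are shown 5′ to 3′ on the gene's strand with the GC box letters GGGCGG (searched on both strands, runs of overlapping matches included) in capitals. Glud1 lies at chr14:34310477-34310776 (plus strand), Oat at chr7:132576349-132576648 (minus strand) and Otc at chrX:10252055-10252354 (plus strand).
Glud1: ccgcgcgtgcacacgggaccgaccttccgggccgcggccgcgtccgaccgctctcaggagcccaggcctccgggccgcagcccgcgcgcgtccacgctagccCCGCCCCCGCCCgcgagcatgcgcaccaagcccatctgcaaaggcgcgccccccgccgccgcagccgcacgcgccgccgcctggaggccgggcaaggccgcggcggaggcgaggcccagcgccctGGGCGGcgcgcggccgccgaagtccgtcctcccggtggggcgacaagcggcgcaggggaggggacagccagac
Oat: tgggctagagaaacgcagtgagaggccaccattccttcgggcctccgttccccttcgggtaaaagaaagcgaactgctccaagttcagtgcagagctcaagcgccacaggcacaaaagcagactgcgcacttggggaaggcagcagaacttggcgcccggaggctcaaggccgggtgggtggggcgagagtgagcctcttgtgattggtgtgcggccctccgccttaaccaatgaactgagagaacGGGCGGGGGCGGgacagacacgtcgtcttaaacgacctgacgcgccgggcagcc
Otc: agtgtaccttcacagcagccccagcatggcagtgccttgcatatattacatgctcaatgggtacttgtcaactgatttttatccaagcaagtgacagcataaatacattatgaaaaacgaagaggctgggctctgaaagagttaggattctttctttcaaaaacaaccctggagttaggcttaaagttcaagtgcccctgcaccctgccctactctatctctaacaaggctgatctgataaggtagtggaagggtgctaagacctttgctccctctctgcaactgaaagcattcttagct
The Glud1 window was 81.0% G or C with 51 CpG dinucleotides, against medians of 52.7% and 7 over 32851 promoters of the same length. It held GC boxes at 3 places. The Oat window held 22 CpG dinucleotides and 2 GC boxes. The Otc window held 1 CpG and no GC box. The letters GGGCGG were present in 4 of the 6 windows (Glud1, Aldh18a1, Oat and Ass1) and in 35.7% of all promoters. TATAAA (13.6% of all promoters), CAAAGTC, a core of HNF4 sites (4.44%), and TGTTCT, a glucocorticoid half-site (18.97%), were in 0 of the 6 on either strand. These are matches of letters and not sites of binding.

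Depth differed between libraries, with totals from 7418730 to 31925579 counts and 13386 to 15766 genes detected. The library numbers in the sample titles were split into 4 runs, libraries 58 to 61 (3 sham, 1 pMCAO), 62 to 65 (2 and 2), 66 to 68 (1 and 2) and 72 (1 sham). The labels do not mark these runs, and their boundaries had been matched to the authors' own fit in an earlier analysis of these data. The first run stood apart. Its 4 libraries held 13386 to 14712 genes against 15343 to 15766 in the others, and the first principal component (40.5% of the variance) set them on 1 side. Mitochondrial rRNA made up 34.8% to 54.5% of their counts and 14.6% to 35.2% of the counts of the others. The part of this share in the differences below was not tested. Since the first run held 3 of 7 sham samples and only 1 of 5 pMCAO samples, each fold change below is given from the fit on the group alone and from a fit with library run as a covariate. Because the run boundaries were matched to the authors' own fit of these data, the fit with library run is not an independent reading. Whether a run is a day of collection is not stated in the labels. A call needed both a Benjamini-Hochberg adjusted p no higher than 0.05 over the 14462 genes tested and a log2 fold change of 1 or more in either direction. By limma-voom on the group alone, 0 genes (0%) were called, with 1219 at an unadjusted p under 0.05. The edgeR test also called 0 and DESeq2 called 70. With library run, limma-voom called 47 genes (0.325%).

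Of the 8 enzyme genes tested, 0 were called by limma-voom in either fit. In each fit 7 of the 8 had a higher fitted level in pMCAO mice, where 55.2% of all genes did so in the fit on the group alone and 51.3% with library run. At an unadjusted p under 0.05, 1 gene was higher (Glud1; 4.66% of all genes) and 0 were lower. With library run 2 were higher (Glud1 and Cps1; 6.58% of all genes) and 0 were lower. The median log2 fold change of the 8 was 0.35 on the group alone and 0.30 with library run, against 0.06 and 0.013 over all genes tested. For 0 of the 8 was every pMCAO sample above every sham sample, which held for 0.311% of all genes. The difference was positive in each of the 3 runs that held both groups for 3 of the 8 (Glud1, Aldh18a1 and Cps1), and for 16.9% of all genes.

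**Figure D1:**
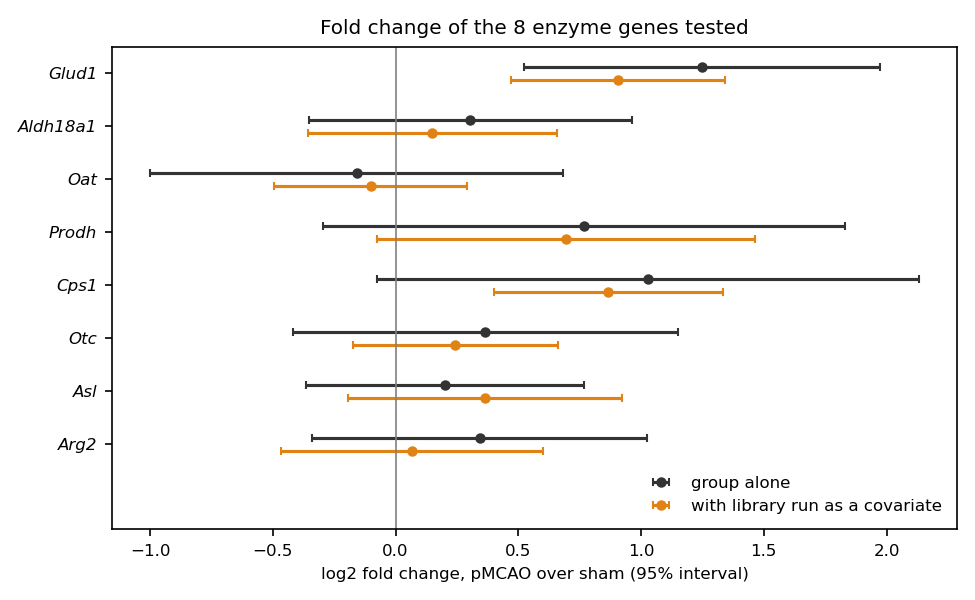
Log2 fold change of pMCAO over sham (x axis) for the 8 enzyme genes tested (y axis), as points with 95% intervals, in the limma-voom fit on the group alone (dark) and with library run as a covariate (orange). The Glud1 interval lies above 0 in both fits (0.52 to 1.97 and 0.47 to 1.34), that of Cps1 lies above 0 only with library run (0.40 to 1.33), and the other 6 span 0 in both.

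The levels of the 9 genes spread over a wide range per length of exon. On the scale of CPM (counts scaled to the library's total after TMM correction) per kb of exon, the sham means were 37.6 ± 11.5 for Arg2, 25.8 ± 10.6 for Glud1 and 24.2 ± 16.7 for Oat (SD, n = 7). The citrulline-forming enzymes stood lower, at 7.32 ± 3.52 for Otc and 5.87 ± 5.02 for Cps1. Aldh18a1 was at 4.62 ± 1.98, Asl at 2.24 ± 0.454, Prodh at 0.485 ± 0.153 and Ass1 at 0.133 ± 0.177. In pMCAO mice the order of the leading pair turned, with 60.7 ± 25.5 CPM per kb for Glud1 and 52.4 ± 25.7 for Arg2 (SD, n = 5). Arg2 was above Glud1 in 7 of 7 sham samples and in 1 of 5 pMCAO samples. Asl and Prodh were the only neighbours in this order that kept it in every sample of both groups (7 of 7 and 5 of 5). The order of Glud1 above Oat was kept in 4 of 7 sham samples, that of Otc above Cps1 in 5 of 7 sham and 2 of 5 pMCAO samples, and that of Cps1 above Aldh18a1 in 3 of 7 sham samples.

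**Figure D2:**
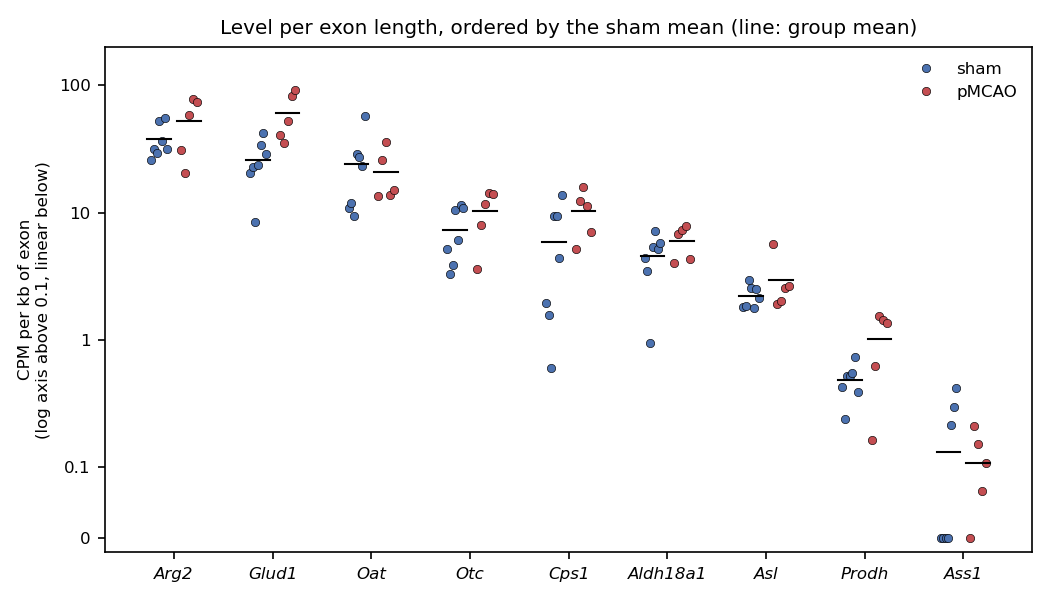
Level of each of the 9 genes in CPM per kb of exon (y axis, logarithmic above 0.1 and linear below), ordered by the sham mean (x axis); points are the 7 sham (blue) and 5 pMCAO (red) samples and lines are group means. Arg2, Glud1 and Oat lead with sham means from 24.2 to 37.6, and Ass1 is at 0 in 4 sham samples and 1 pMCAO sample.

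Glud1 (chromosome 14, 34310727 to 34345265, GRCm38, plus strand), the glutamate dehydrogenase, showed the largest log2 fold change of the genes tested in both limma-voom fits. The pMCAO samples were at 171, 149, 220.1, 350.2 and 387 CPM in order of replicate number. The sham samples ran from 35.7 to 177 CPM with a median of 100.5. The 3 sham samples of libraries 58 to 61 were at 86.4, 95.8 and 35.7, and the other 4 at 100.5, 142.5, 177 and 122. Thus 3 of 5 pMCAO samples lay above the highest sham sample, 6 of 7 sham samples lay below the lowest pMCAO sample, and the groups overlapped by 1 sham sample. The mean was 109 ± 44.8 CPM for sham (SD, n = 7) and 255 ± 107 CPM for pMCAO (SD, n = 5). On the log2 scale the fold change was 1.25 (SE 0.34; limma-voom adjusted p = 0.318), which missed the threshold after adjustment. With library run it was 0.91 (SE 0.21; limma-voom adjusted p = 0.0604). Within the 3 runs that held both groups it was 1.36, 0.60 and 1.06, in order of library number. Without libraries 58 to 61 it was 0.97 (SE 0.28; limma-voom adjusted p = 0.620). DESeq2 on the group alone gave 1.22 with an adjusted p of 0.0489, so the call turned with the tool. With library run, Cps1 had the larger value by edgeR (1.12 against 0.93 for Glud1) and by DESeq2 (1.12 against 0.92). A processed pseudogene, Glud-ps, which had no row of its own in the table, shares 656 bases (19.4%) of the longest Glud1 transcript at an identity of at least 95%.

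**Figure D3:**
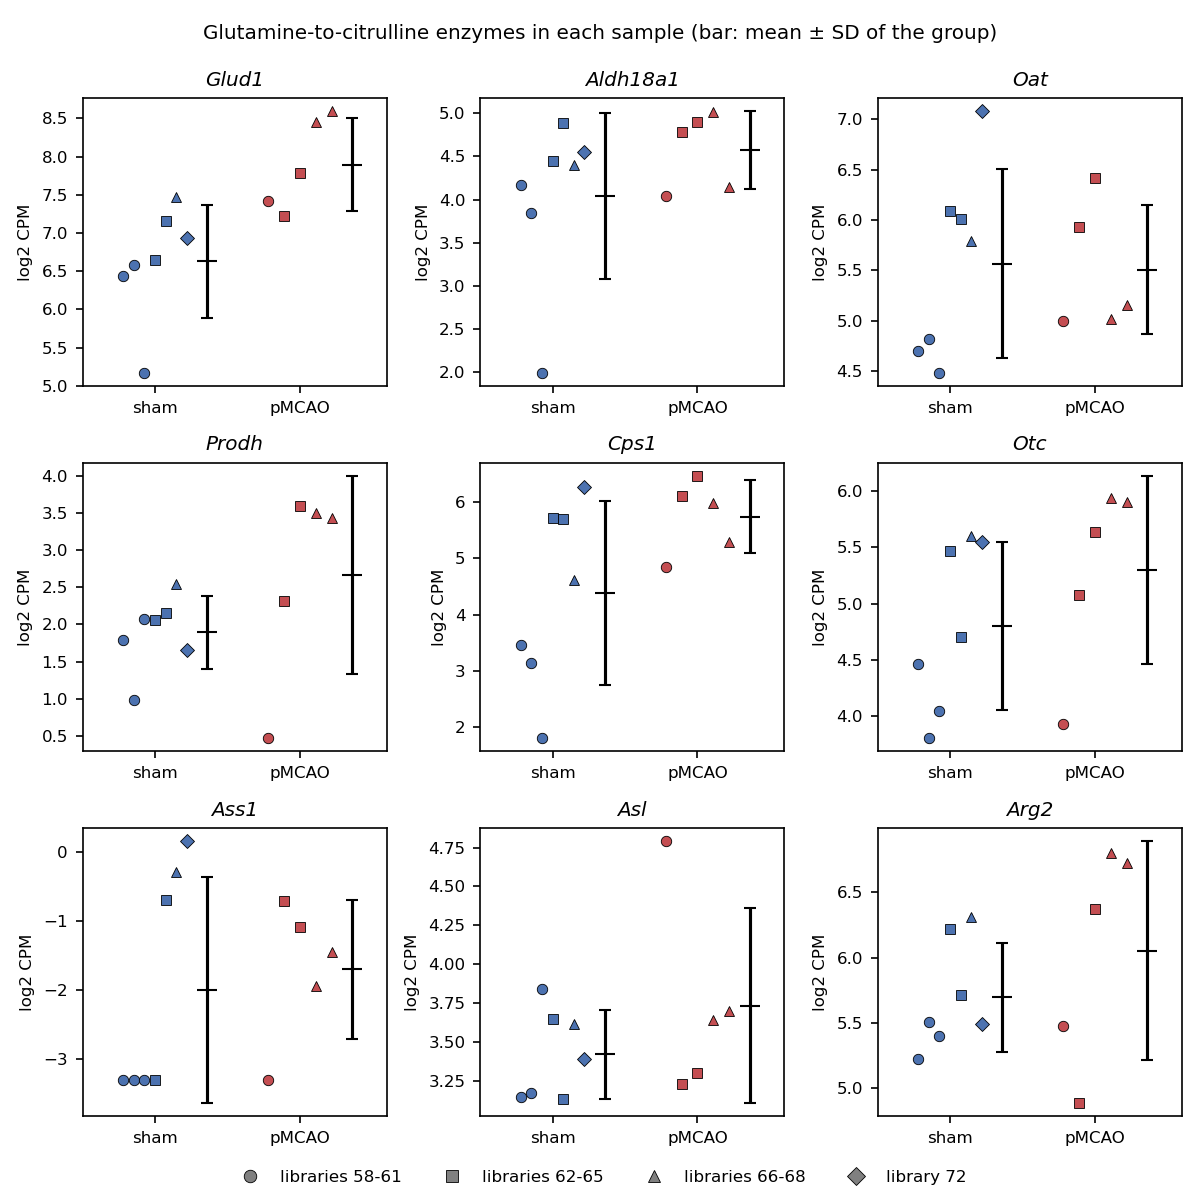
Log2 CPM (y axis, prior count 2) of each of the 9 genes in every sham (blue) and pMCAO (red) sample; the marker shape gives the library run and the black bars are the group mean ± SD. Circles (libraries 58 to 61) lie at the bottom of the sham group for Glud1, Aldh18a1, Oat, Cps1 and Otc. Glud1 is the gene whose pMCAO samples overlap the sham group least.

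None of the enzymes that feed P5C and ornithine passed the test. Aldh18a1 (chromosome 19, 40550257 to 40588463, minus strand), the synthase that commits glutamate to P5C, was at 16.3, 27.5, 29.7, 32.1 and 17.6 CPM in the pMCAO samples. Its sham samples ran from 3.86 to 29.4 with a median of 21.1 CPM, a range that takes in 3 of the 5 pMCAO samples. The fitted log2 fold change was 0.30 (SE 0.31; limma-voom adjusted p = 0.801) and 0.15 with library run (SE 0.24; limma-voom adjusted p = 0.840). The 95% interval, -0.35 to 0.96, leaves room for a fold change of up to 1.95. Without sham replicate 3 the value on the group alone was 0.15, and without libraries 58 to 61 it was 0.14. With library run it ranged from 0.051 (without pMCAO replicate 4) to 0.31 (without pMCAO replicate 5).

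Prodh (chromosome 16, 18060357 to 18090203, minus strand), which oxidises proline to P5C, was among the lowest of the 9 genes. Its pMCAO samples were at 1.28, 4.86, 11.98, 11.2 and 10.7 CPM, and its sham samples ran from 1.87 to 5.71 CPM with a median of 4.07. Hence 3 pMCAO samples were above every sham sample, and pMCAO replicate 1 was below every one of them. The log2 fold change was 0.77 (SE 0.50; limma-voom adjusted p = 0.677), and 0.69 with library run (SE 0.36; limma-voom adjusted p = 0.446). By run it was -1.14 in libraries 58 to 61, then 0.85 and 0.93. Without libraries 58 to 61 it was 0.94 (limma-voom adjusted p = 0.655), and without pMCAO replicate 3 it was 0.47.

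Oat (chromosome 7, 132557478 to 132576398, minus strand), which makes the ornithine that Otc uses, was the only gene of the 8 with a lower fitted level in pMCAO mice. Its pMCAO samples were at 31.9, 61.1, 85.5, 32.3 and 35.5 CPM. Its sham samples were at 25.9, 28.2 and 22.2 CPM in libraries 58 to 61 and at 68, 64.4, 55.4 and 135 CPM in the others. All pMCAO samples thus lay within the sham range. Its log2 fold change came to -0.16 (SE 0.40; limma-voom adjusted p = 0.932), -0.10 with library run, and 0.33, 0.13 and -0.71 within the runs. Its direction turned on 1 library, being 0.10 without sham replicate 7, and it was -0.55 without libraries 58 to 61 (SE 0.33; limma-voom adjusted p = 0.731).

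Cps1 (chromosome 1, 67123026 to 67231259, plus strand) supplies carbamoyl phosphate for citrulline. It was at 28.8, 68.7, 88.0, 63.2 and 39.1 CPM in the pMCAO samples. The sham samples of libraries 58 to 61 were at 10.9, 8.71 and 3.38 CPM, and the other 4 at 52.2, 51.9, 24.5 and 76.7 CPM. All 5 pMCAO samples were above the sham median of 24.5, but 1 of them was above the highest sham sample. The group means were 32.6 ± 27.9 CPM (SD, n = 7) in sham-operated mice and 57.6 ± 23.7 CPM (SD, n = 5) after stroke. The fold change on the log2 scale was 1.03 (SE 0.52; limma-voom adjusted p = 0.606). With library run it was 0.87 (SE 0.22; limma-voom adjusted p = 0.101), and within the runs 2.05, 0.58 and 1.02. Without libraries 58 to 61 the fold change on the group alone was 0.47 (SE 0.33; limma-voom adjusted p = 0.779), less than the 1.03 over all samples. With library run and DESeq2 it was 1.12 with an adjusted p of 0.00671.

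Otc (chromosome X, 10252305 to 10321024, plus strand) forms citrulline itself. Its pMCAO samples were at 15.2, 33.7, 49.7, 61 and 59.5 CPM. Its sham samples were at 21.97, 13.9 and 16.4 CPM in libraries 58 to 61 and at 44.2, 25.9, 48.5 and 46.5 CPM in the others. The 3 highest values were pMCAO samples, while the pMCAO sample of libraries 58 to 61 was the second lowest of the 12. For Otc the log2 fold change was 0.37 (SE 0.37; limma-voom adjusted p = 0.798), and 0.24 with library run (SE 0.20; limma-voom adjusted p = 0.647). Within the runs it was -0.17, 0.27 and 0.31. The 95% interval with library run, -0.17 to 0.66, reached up to a fold change of 1.58. Single libraries moved the value, to 0.67 without pMCAO replicate 1 and 0.22 without pMCAO replicate 5 on the group alone, and to 0.085 without sham replicate 5 with library run.

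Ass1 (chromosome 2, 31470207 to 31520672, plus strand), the first of the enzymes that use citrulline, was barely detected. The pMCAO samples held 0, 22, 16, 2 and 7 counts and the sham samples 0, 0, 0, 0, 9, 28 and 14, which is 98 counts in all. Each of the 5 libraries at 0 allows a level of up to 0.239 to 0.724 CPM (3 counts in each library, counting error only), while the highest sample was at 1.02 CPM. The gene did not reach the count filter, so no fold change was fitted. Its reads are also uncertain. The processed pseudogene Gm5424 shares 73.1% of the longest Ass1 transcript at an identity of at least 95%, and held 155 counts itself, so reads could have been split or dropped between the copies.

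Asl (chromosome 5, 130011258 to 130029247, minus strand), which releases arginine from argininosuccinate, was at 27.6, 9.27, 9.77, 12.4 and 12.9 CPM in the pMCAO samples. The sham samples ran from 8.67 to 14.2 CPM with a median of 10.4. A single pMCAO sample, that of libraries 58 to 61, lay outside the sham range. The log2 fold change was 0.20 (SE 0.27; limma-voom adjusted p = 0.855) and 0.37 with library run (SE 0.26; limma-voom adjusted p = 0.607). Within the runs it was 1.40, -0.13 and 0.056, and without pMCAO replicate 1 it was 0.020 (0.0098 with library run).

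The balance of the steps that form and use citrulline was read within each library. The mean log2 CPM of the citrulline-forming pair (Cps1, Otc) minus that of the citrulline-using pair (Ass1, Asl) was 3.88 ± 0.84 in sham-operated mice (SD, n = 7; 2.65 to 5.41) and 4.50 ± 0.57 in pMCAO mice (SD, n = 5; 3.65 to 5.11). The ranges overlapped, and the difference within the runs was 0.24, -0.060 and 1.34. Because Ass1 was at 0 in 5 libraries, its part of this value is set there by the prior count of 2 and the value moves with the scaling of the library. Against Asl alone, the forming pair was higher in 10 of 12 libraries and lower in sham replicate 3 (-0.92) and pMCAO replicate 1 (-0.40).

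Arg2 (chromosome 12, 79130777 to 79156301, plus strand), the mitochondrial arginase that returns ornithine, was at 44.4, 29.5, 82.95, 112 and 106 CPM in the pMCAO samples. The sham samples ran from 37.3 to 79.3 CPM with a median of 45.4. So 3 pMCAO samples lay above all sham samples and 1 below all of them. For Arg2 the log2 fold change was 0.34 (SE 0.32; limma-voom adjusted p = 0.783), and 0.067 with library run (SE 0.25; limma-voom adjusted p = 0.947). Within the runs it was 0.098, -0.34 and 0.45. Leaving out 1 library gave 0.16 (without pMCAO replicate 4) to 0.62 (without pMCAO replicate 2) on the group alone, and -0.15 (without sham replicate 6) to 0.36 (without pMCAO replicate 2) with library run. Exons of Vti1b (285 bases) and of Gm48780 (116 bases) overlap the 1428 bases of Arg2 exon on the opposite strand. Since use of strand in counting was not stated, reads of these genes could not be told apart there.

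Among sham samples, most of the same genes separated the first library run from the rest. For 5 of the 8 genes tested (Glud1, Aldh18a1, Oat, Cps1 and Otc), every sham sample of the later libraries was above every sham sample of libraries 58 to 61, against 17.2% of all genes. With both groups, all libraries of the first run lay below all others for Oat and Otc but not for Glud1, Aldh18a1 or Cps1. The share of all genes under this rule for both groups was not counted, so these genes cannot be set against it. From the means of log2 CPM, the later sham samples were 6.84-fold higher for Cps1, 2.98-fold for Oat, 2.36-fold for Aldh18a1, 2.34-fold for Otc and 1.99-fold for Glud1. Arg2 (1.47-fold), Prodh (1.41-fold) and Asl (1.04-fold) differed less. The median log2 difference was 1.11 over the 8 genes and 0.22 over all genes tested. The Cps1 difference between runs, among sham samples alone, was therefore larger than its difference between pMCAO and sham.

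The rest of glutamine, proline and arginine metabolism was read from a list of 40 genes, of which 35 were in the table and 34 were tested. By limma-voom 0 were called in either fit. At an unadjusted p under 0.05, 3 of the 34 were higher and 0 lower in pMCAO mice, beside 4.66% of all genes higher. With library run 6 were higher and 0 lower, beside 6.58% of all genes higher. The fitted level was higher for 25 and lower for 9 on the group alone (55.2% of all genes higher), with a median log2 fold change of 0.31. The smallest p belonged to Slc25a15, the mitochondrial carrier that exchanges ornithine for citrulline. It was at 39.2 ± 19.3 CPM in sham-operated mice (SD, n = 7) and 74.4 ± 18.4 CPM in pMCAO mice (SD, n = 5). This carrier had a log2 fold change of 0.96 (SE 0.29; limma-voom adjusted p = 0.380), and 0.80 with library run (SE 0.21; limma-voom adjusted p = 0.117). Within the runs it was 0.88, 1.14 and 0.26.

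The next by p were Got1, the cytosolic aspartate aminotransferase, and Agmat, an agmatinase homologue. Got1 was at 43.3 ± 15.1 CPM in the sham group and 71.4 ± 21.01 CPM in pMCAO mice, which on the log2 scale differed by 0.74 (SE 0.26; limma-voom adjusted p = 0.481). With library run it was 0.57 (SE 0.23; limma-voom adjusted p = 0.300), and within the runs 1.40, -0.068 and 0.83. Agmat was near the limit of detection, at 0.390 ± 0.646 and 1.46 ± 0.840 CPM. Its fitted log2 values, 2.46 (SE 0.94; limma-voom adjusted p = 0.510) and 1.56 with library run (SE 0.68; limma-voom adjusted p = 0.344), rest on few counts. Slc6a19, the main neutral amino acid transporter of the brush border, had a log2 fold change of 0.62 (SE 0.30; limma-voom adjusted p = 0.602) and 0.56 with library run (SE 0.20; limma-voom adjusted p = 0.246). Odc1, which turns ornithine towards polyamines, had a log2 fold change of -0.64 (SE 0.33; limma-voom adjusted p = 0.607), and of -0.32 with library run (SE 0.20; limma-voom adjusted p = 0.531). Within the runs it was 0.19, -0.77 and -0.19. It was at 152 ± 58.5 CPM in the sham and 103 ± 67.2 CPM in the pMCAO samples. For Nags, which makes the activator of Cps1, the log2 fold change was 0.11 (SE 0.24) on the group alone and 0.17 (SE 0.26) with library run. For the cytosolic arginase Arg1 it was -0.021 (SE 0.50) and -0.33 (SE 0.46), with -1.58, -0.74 and 0.68 within the runs. Nags and Arg1 were named for their place in the route.

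**Figure D4:**
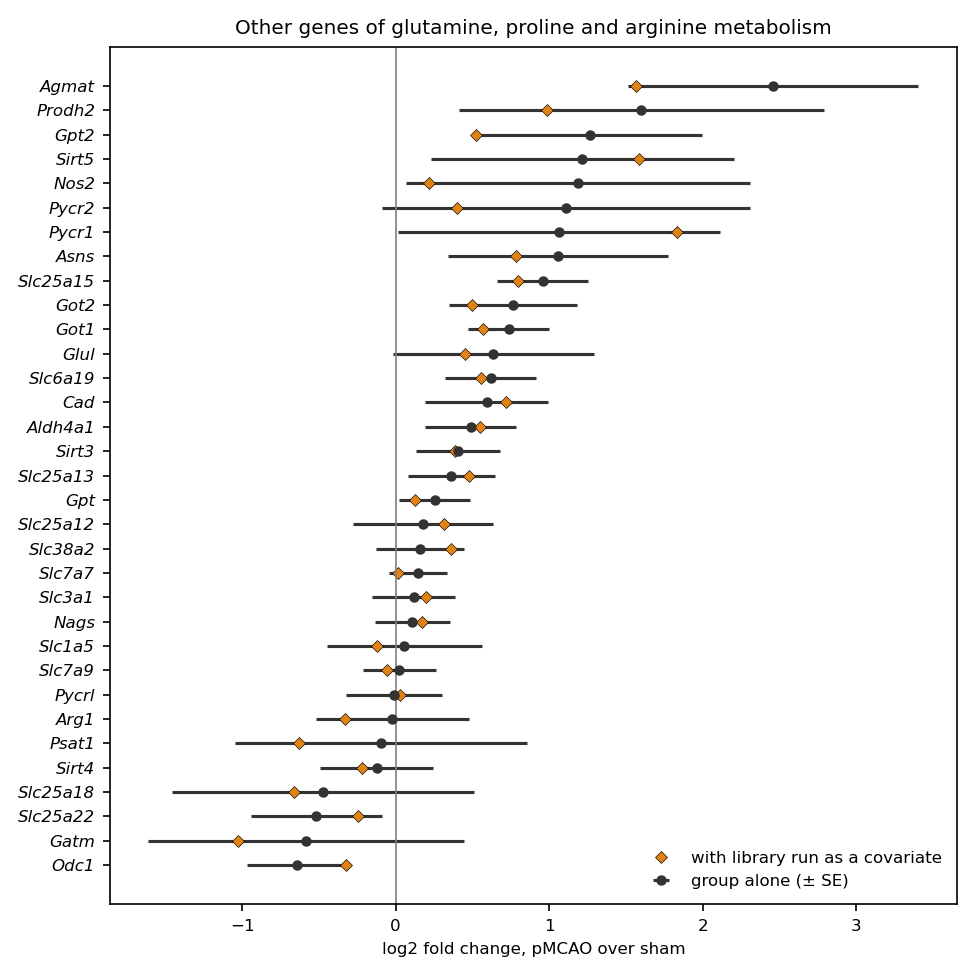
Log2 fold change of pMCAO over sham (x axis) of 33 of the 34 listed genes tested (y axis), ordered by the fit on the group alone (dark points, bars ± SE), with the fit including library run as orange diamonds. Most points lie right of 0 (25 of 33), the widest bars belong to genes of low count, and 0 genes were called.

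Marker genes gave the make-up of the sorted cells. The 5 epithelial markers were present in all samples. Their sum had a median of 5157 CPM in sham samples (3244 to 6044) and 3539 CPM in pMCAO samples (3332 to 6949). By run the sum was 5596 to 6949 CPM in libraries 58 to 61 and 3244 to 5157 CPM in the others. The part of this split in the medians of the groups was not tested. On the group alone 3 of 5 (Epcam, Cdh1 and Krt8) had a lower fitted level in pMCAO mice, with 0 at an unadjusted limma-voom p under 0.05. Of 5 stromal markers 4 were absent from the table and the remaining one, Pecam1, was at most 5.24 CPM. Macrophage markers summed to 6.89 to 39.5 CPM, Paneth cell markers to 10.6 to 74.8, stem and cycling markers (4 of 5 in the table) to 13.0 to 178, and T cell markers to 28.2 to 474. T cell sums had medians of 116 CPM in sham and 94.7 CPM in pMCAO samples. On the group alone 4 of 5 T cell markers had a higher fitted level in pMCAO mice. At an unadjusted limma-voom p under 0.05 there were 0 on the group alone and 3 with library run. Hepatocytes also express Cps1, Otc and Arg1 strongly. Their markers (4 of 5 present) summed to 0.940 to 3.62 CPM in libraries 58 to 61 and 10.6 to 18.8 CPM in the others, with Alb, Ttr and Serpina1a at 0 in at least 1 library. The sham means were 5.91 CPM for Ttr, 2.86 for Arg1, 0.711 for Serpina1a and 0.445 for Alb. Whether any of these reads came from hepatocytes was not tested. Goblet cell markers (5 of 5 present) summed to 3214 to 5778 CPM in libraries 58 to 61 and to 15860 to 39583 CPM in the others. For Oat and Otc too, all 4 libraries of that run lay below all 8 others, whereas for Cps1 pMCAO replicate 1 did not. How many of all genes did so was not counted. The part of the goblet cell and hepatocyte markers in those differences was not tested.

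In the lists for parts of the epithelium, most genes had a higher fitted level in pMCAO mice on the group alone. This held for 5 of 5 goblet and 4 of 4 stem and cycling markers, and for 4 of 5 Paneth, proximal and distal markers each. Of all genes, 55.2% were higher on the group alone and 51.3% with library run. With library run the sign turned to lower for Agr2 (-0.086, goblet), Lgr5 (-0.47, stem and cycling) and Slc10a2 (-0.29, distal). It turned to higher for Apoa4 (0.013, absorptive enterocyte). Goblet cell sums had medians of 15860 CPM in sham and 22465 CPM in pMCAO samples. Of the 5 goblet markers, 0 had an unadjusted limma-voom p under 0.05 on the group alone and 3 with library run. Absorptive enterocyte markers (5 of 5 present) summed to 12937 to 23012 CPM in sham-operated mice and 15176 to 48966 CPM in pMCAO mice, with medians of 18336 and 17790. The highest sum was that of pMCAO replicate 1, a library of the first run, and all others were at most 23012. In the fit 4 of 5 were higher, 2 of them at an unadjusted p under 0.05 (Sis and Fabp2). Markers of the proximal small intestine (5 of 5) summed to 1328 to 2843 CPM with a median of 1535 in the sham group and to 1609 to 3256 CPM with a median of 2893 in the pMCAO group. At an unadjusted p under 0.05, Fabp1 was higher (log2 fold change 1.00, and 0.48 with library run) and Cybrd1, at 1.33 CPM in sham and 0.193 CPM in pMCAO samples, was lower (-3.16, and -2.97 with library run). The distal markers (5 of 5) had medians of 791 and 821 CPM, with ranges of 379 to 1103 and 626 to 1082. Of these, 1 (Guca2a) was higher at an unadjusted limma-voom p under 0.05 on the group alone (log2 fold change 0.65, and 0.66 with library run). These values stand beside those of Glud1 and Cps1, and their part in them was not tested.

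The patterns most like those of the citrulline-forming pair were sought among 13086 genes with a mean of at least 1 CPM, by the root mean square difference of log2 CPM over the 12 samples after centring each gene. For Cps1 the nearest were 9130208D14Rik (0.34), Rps4x (0.37) and Rpl39-ps (0.39), and the nearest of the other route genes was Aldh18a1 at 0.80. For Otc they were Dlat (0.24), a subunit of pyruvate dehydrogenase, Fh1 (0.28), the fumarase of the citric acid cycle, and Adh1 (0.29), an alcohol dehydrogenase, with Arg2 the nearest route gene at 0.53. The samples share library run and depth, so likeness of pattern includes both.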

How the data were processed

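RNA from sorted epithelial cells of 7 sham and 5 pMCAO samples was sequenced as paired-end reads of 100 bp. Per the labels and the study's methods, the authors removed ribosomal RNA by cleavage, aligned reads to GRCm38 with STAR through rnasik and counted them with featureCounts; the strand setting was not stated. The authors deposited whole-number counts per gene, not normalised, and these counts were used for every test. The deposited CPM columns are those counts scaled to each sample's total, which held for 190260 of 190260 values within 0.001. The deposited columns of the authors' own comparison (fold changes, average expression and p-values) did not enter any test. The authors' own fit had, however, been used in an earlier analysis to place the boundaries of the library runs.

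Members and lists were chosen with earlier results of these data known, and so were the boundaries of the library runs, which split the library numbers of the titles where an earlier analysis had matched them to the authors' own fit. Genes were kept with filterByExpr (minimum count 10; 14462 kept, 1393 removed), scaled by TMM and compared by limma-voom with the group as the only term, the Benjamini-Hochberg adjustment and the study's thresholds, in R 4.3.3 with edgeR 4.0.16 and limma 3.58.1. The study also corrected for day of collection, which the labels do not give. CPM in the text are TMM-scaled, and log2 CPM has a prior count of 2. On that scale a floor of 3 counts was 0.069 to 0.724 CPM, and covers counting error only. Exon lengths and positions are from GENCODE M21, near copies from blastn (at least 95% identity over 100 bases), promoters from RefSeq. The tests were tested on simulated data.

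The text names all 9 genes, the 5 pathway genes of lowest unadjusted p and the 3 genes nearest to Cps1 and to Otc. Pathway genes called by limma-voom on the group alone or with library run were also to be named, and there were 0. Pathway genes called only under another alternative were not named as called. Values of 1 gene of the pathway list on its own are not reported here. Alternatives were limma-trend, DESeq2 1.42.0, the quasi-likelihood test of edgeR, sample weights, other scalings, no filter, covariates for library run or number, a replicate block and leaving out samples.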

Additional observations from a re-analysis of the deposited data

Results flagged for a closer look

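Among 20 groups of values examined, the level of Aldh18a1 in sham replicate 3 (log2 CPM 1.99) lay far from the other 6 sham samples, which were at 4.38 ± 0.35 (SD, n = 6) on the same scale. That sample had the lowest total count, 7418730. Chance flags about 1 in 20 such groups, so 1 was expected.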

How the results depend on the processing

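Each fold change was refitted under the alternatives. On the group alone, 201 of 208 refits of the 8 genes kept their direction and side of the threshold, 4 gained the call and 3 changed sign, and with library run 114 of 120 did so, 3 gained and 3 changed sign. Glud1 was positive in 26 of 26 alternatives, from 0.91 to 1.45 (adjusted p from 0.00586 to 0.713), and Cps1 in 26 of 26, from 0.47 to 1.35 (adjusted p from 0.00671 to 0.866). The genes called on the group alone (0) became 70 with DESeq2, 1 with limma-trend, 18 with sample quality weights, 47 with library run, 156 with library number, 21 and 97 with library run by edgeR and by DESeq2, and 0 to 17 when 1 sample was left out (17 without pMCAO replicate 3, 8 without pMCAO replicate 1, 5 without sham replicate 7). Of the 8 genes, 1 was called by DESeq2 (Glud1), with library number (Glud1, 1.31, adjusted p = 0.0131) and with library run by DESeq2 (Cps1), and 0 to 0 with 1 sample left out. With library number 1 gene of the pathway list was called.

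The count of 47 with library run became 21 by edgeR, 97 by DESeq2, 0 without libraries 58 to 61, and 4 (without sham replicate 6) to 86 (without pMCAO replicate 3) with 1 sample left out. Leaving out others also moved it by over 1.5 times: 30, 31 and 28 without sham replicates 1, 2 and 3, and 6, 21 and 19 without pMCAO replicates 1, 4 and 5. Of the 8 genes with library run, 1 was called by DESeq2, and 0 to 1 with 1 sample left out: Glud1, at 1.06 without sham replicate 5 and 1.03 without pMCAO replicate 2. Signs turned for Oat (-0.38 to 0.10 with 1 sample left out, 0.10 without sham replicate 7, and -0.24 to 0.18 with library run, 0.18 without sham replicate 6), for Asl (-0.028 without libraries 58 to 61) and for Arg2 with library run (-0.15 without sham replicate 6, -0.13 without pMCAO replicate 3, and at most 0.36 with any 1 sample left out). The cause was not tested.

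Sham and pMCAO samples share replicate numbers, but same-numbered samples did not deviate together (correlations from -0.24 to 0.40), and 1 of 5 sham samples correlated best with its own number. With the number as a replicate block over those samples, 243 genes were called, among them 1 of the 8 (Glud1, 1.45, adjusted p = 0.00586) and 1 of the pathway list, and Oat was at 0.11.

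Depth limits Ass1 most, with 98 counts in 12 libraries. The 5 pMCAO samples and the uneven split of the first library run limit how far the fold changes of the other genes can be narrowed. The scalings tried moved the median over all genes from 0.06 to 0.05 to 0.06.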
